A study of Mus musculus with 6 samples.

Results

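The proteasome is the protease complex that degrades proteins marked with ubiquitin. The 50 genes described here are its subunits, activators and assembly factors, taken as every row of the count table whose symbol starts with Psm, a letter from a to g and a number, with the 5 rows named as pseudogenes (-ps) left out. The table has 55291 rows, of which 34067 had a count and 16480 passed the filter on low counts and were tested. Of the 50 genes, 49 were tested, and Psmb11, the catalytic subunit of the thymus proteasome, had no count in any library. The rule also takes in 2 genes that are not subunits, namely Psmc3ip, which encodes a partner protein of meiotic recombination, and Psme2b, a near copy of Psme2.

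RNA was sequenced from natural killer (NK) cells of the spleen of 3 S303/7A mice (libraries S303/7A 5, 6 and 7) and 3 wild-type mice (libraries WT 1, 2 and 3), all at steady state, with 1 mouse per library. In S303/7A mice, the serines at positions 303 and 307 of heat shock factor 1 (HSF1), which switches on chaperone genes under heat and other protein stress, are replaced by alanine. The series text calls these mice HSF1-enhanced. The sources used here give no age, sex, strain background or zygosity. The cells were enriched with DX5 beads and sorted as CD49b+ and CD3e- cells. The question put to these genes was whether resting NK cells of S303/7A mice carry more or less proteasome transcript, and whether the balance of immune and constitutive catalytic subunits differs.

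The core of the proteasome is a barrel of alpha rings, which gate the entrance, around beta rings, which hold the proteolytic sites. The constitutive catalytic subunits, Psmb5, Psmb6 and Psmb7, can be replaced during assembly by Psmb8, Psmb9 and Psmb10, which gives the immunoproteasome, a form that lymphocytes contain and that interferon gamma induces. A regulatory particle with a base of ATPases and a lid that removes ubiquitin caps the core, and the PA28 activator, made of Psme1 and Psme2, can take its place.

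Total counts were 43189163 to 47248039 in S303/7A libraries and 53845572 to 72736406 in WT libraries, so depth differed with genotype. All 11 NK markers had counts, and their summed level was 21928 to 23729 counts-per-million units (CPM) in S303/7A and 20891 to 25471 CPM in WT. Of the 11, 1 was called, Klrb1c, an NK receptor gene, with 1640, 1755 and 1676 CPM in S303/7A 5, 6 and 7 and 2256, 2469 and 2663 CPM in WT 1, 2 and 3 (log2 fold -0.54 ± 0.07, edgeR's adjusted p 0.0454), and 5 of the 11 folds were below 0. Klrk1, another NK receptor gene, lay higher without overlap, with 2233, 1848 and 2276 CPM in S303/7A and 1455, 1357 and 1483 CPM in WT. Ncr1 also lay higher without overlap, and Klrd1 lay lower without overlap. The summed basophil markers were 235 to 318 CPM in S303/7A and 378 to 807 CPM in WT, and the summed platelet markers were 114 to 157 CPM in S303/7A and 251 to 270 CPM in WT, so both lists were lower in S303/7A without overlap of the groups. All 7 basophil and all 8 platelet markers had folds below 0, and 1 of each list was called lower. Their part in the results below was not tested. The summed T cell, B cell, neutrophil, monocyte, dendritic, erythroid and stromal markers overlapped between the genotypes, and the endothelial marker Cdh5 was at 0. Since these are bulk samples, fewer cells of a type and less RNA per cell cannot be told apart.

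None of the 49 tested genes differed between the genotypes after adjustment. Over all genes tested, edgeR's quasi-likelihood test with Benjamini-Hochberg adjustment called 60 genes at an adjusted p under 0.05, which is 0.364%, with 22 higher in S303/7A (0.133%) and 38 lower (0.231%). At an unadjusted p under 0.05, 5 of the 49 genes (10.2%) passed, beside 9.68% of all genes, so the share was near the background. Of these, 4 (8.16% of the 49) were higher in S303/7A, namely Psmd5, Psmb10, Psmb8 and Psmd6, beside 4.21% of all genes. The 1 that was lower (2.04%) was Psmb5, beside 5.47% of all genes. The 3 S303/7A values lay wholly above or below the 3 WT values for 7 of the 49 genes (14.3%), beside 16.0% of all genes. Psmb8, Psmb10, Psmd5 and Psmd6 were the 4 (8.16%) that lay above, beside 7.64% of all genes. Psmb5, Psmc4 and Psmd3 were the 3 (6.12%) that lay below, beside 8.37%. DESeq2, run as an alternative, called 1 of the 49 (2.04%), Psmb5, beside 2.09% of the genes to which it gave an adjusted p.

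The proteasome genes varied little. The median absolute log2 fold was 0.06, against 0.18 over all tested genes, and 47 of 49 (95.9%) had an absolute log2 fold under 0.25, against 60.1% of all tested genes. The 95% interval of the log2 fold lay within 0.50 of 0 for 46 genes (93.9%), against 34.6% of all tested genes. These genes were also more deeply counted, with a median of 146 CPM against 11.9 CPM over all tested genes and a median SE of the log2 fold of 0.08 against 0.23. For most of them the data therefore bound the difference at less than 1.5-fold in either direction.

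**Figure D1:**
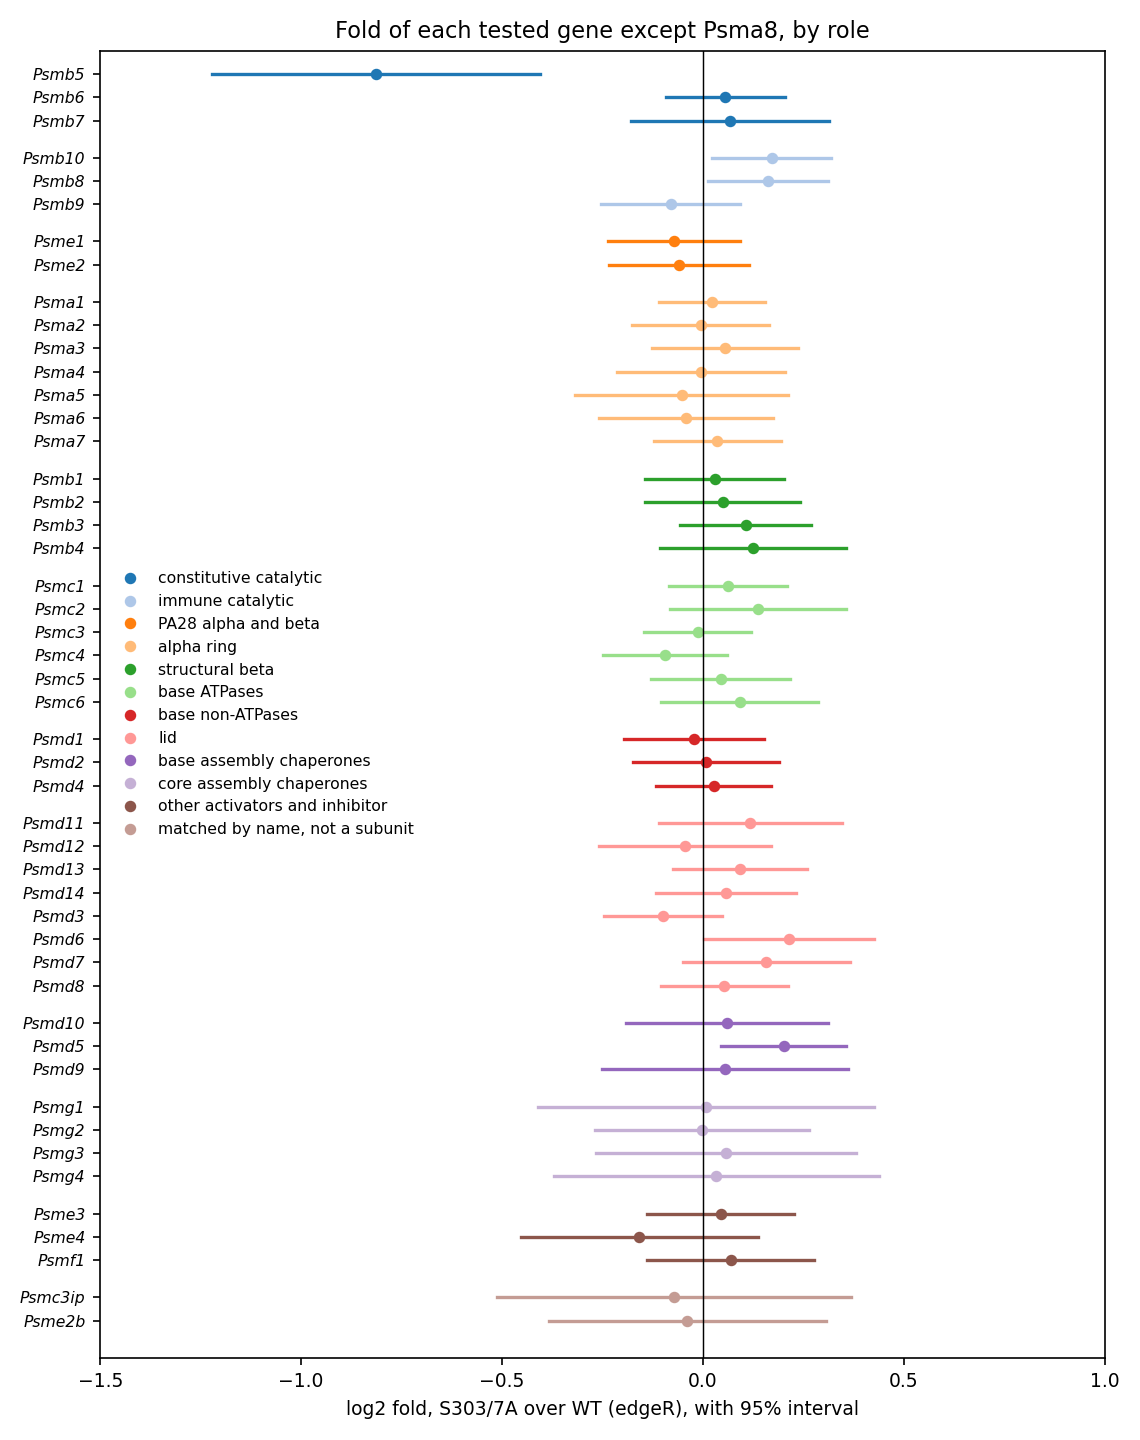
Log2 fold of S303/7A over WT for 48 tested genes, grouped and coloured by role, with points for the edgeR estimate and bars for its 95% interval. Psma8, with few counts and a fold of 1.35 ± 0.82 (SE), is not drawn. Psmb5 at -0.81 stands apart at the top, and all other points lie between -0.16 and 0.21.

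Psmb5, which carries the chymotrypsin-like activity of the constitutive core, was the one subunit that stood apart. It had 59.9, 39.5 and 38.6 CPM in S303/7A 5, 6 and 7 and 79.5, 78.8 and 84.2 CPM in WT 1, 2 and 3. The groups did not overlap, and S303/7A 5 lay between the other S303/7A libraries and the WT libraries. The log2 fold was -0.81 ± 0.17 (SE, 95% interval -1.22 to -0.40) with a p of 0.00216 before adjustment, and edgeR's adjusted p of 0.168 did not pass. The adjusted p was 0.000702 with DESeq2, 0.0286 in edgeR without a filter on low counts and 0.0365 in edgeR without S303/7A 5, where the log2 fold was -1.05.

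Another row of the table showed the opposite pattern. Gm3375 is annotated as a processed pseudogene on the forward strand of chromosome 7, 3181093 to 3181888 (GRCm38, ENSMUSG00000107470.1), and Psmb5 lies on the reverse strand of chromosome 14, 54614119 to 54618022 (ENSMUSG00000022193.7). In the GENCODE transcripts, Gm3375 aligned to the whole Psmb5 coding sequence of 795 bases at 98.99% identity, with 8 substitutions and 1 gap. Counted from 1 at the A of the Psmb5 start codon, with the Psmb5 base first, the substitutions are G6A, G106A, C297T, C306T, T387A, C417T, T465C and C660A. The longest stretch without a difference is 194 bases. Psmb5 has 3 exons, and Gm3375 is 1 uninterrupted copy. The stretch with the densest differences, coding positions 285 to 475 in exon 2 of Psmb5, is printed to show what a read must cover to be placed on one gene or the other. It is chr14:54616545-54616735 on the reverse strand for Psmb5 and chr7:3181378-3181568 on the forward strand for Gm3375, both 5′ to 3′ in the direction of Psmb5, and capitals mark the 5 differing bases.
Psmb5: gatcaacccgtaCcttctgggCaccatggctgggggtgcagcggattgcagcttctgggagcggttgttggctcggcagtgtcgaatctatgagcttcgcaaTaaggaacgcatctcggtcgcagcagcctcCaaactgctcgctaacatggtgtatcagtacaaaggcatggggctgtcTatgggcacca
Gm3375: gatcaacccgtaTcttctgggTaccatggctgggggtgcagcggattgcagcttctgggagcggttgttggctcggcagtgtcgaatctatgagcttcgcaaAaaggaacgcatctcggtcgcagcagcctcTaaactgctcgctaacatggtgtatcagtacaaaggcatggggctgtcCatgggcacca

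Gm3375 rose in S303/7A, where it had 928, 1983 and 2110 counts in libraries 5, 6 and 7, against 34, 30 and 40 counts in WT 1, 2 and 3. Scaled for depth this was 21.6, 46.0 and 45.2 CPM in S303/7A and 0.539, 0.552 and 0.544 CPM in WT. The log2 fold was 6.10 ± 0.31 (SE) and edgeR's adjusted p was 0.00168, so this row is among the 22 called higher. The S303/7A library with the fewest counts on Gm3375, library 5, was the one with the most on Psmb5.

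The sum of both rows was level between the genotypes. Psmb5 and Gm3375 together had 81.6, 85.5 and 83.8 CPM in S303/7A (83.6 ± 1.95, SD, n = 3) and 80.1, 79.3 and 84.7 CPM in WT (81.4 ± 2.90, SD, n = 3), and the groups overlapped. With both rows summed before the fit, the log2 fold was 0.04 ± 0.07 (SE, 95% interval -0.13 to 0.21) and edgeR's adjusted p was 0.930. Gm3375 held 26.5% of the sum in S303/7A 5 (95% Wilson interval 25.1 to 28.0), 53.8% in S303/7A 6 (52.2 to 55.4) and 53.9% in S303/7A 7 (52.4 to 55.5). In WT 1, 2 and 3 it held 0.673%, 0.695% and 0.642%, with intervals from 0.472 to 0.991 over the 3 libraries. The intervals take in counting error alone, as PCR copies cannot be told from separate molecules without identifiers. Transcripts of the gene and of its copy differ at so few bases that reads of one can be counted on the other, and how the reads were divided was not tested. A loss of Psmb5 transcript, a gain of Gm3375 transcript and a shift of counts between the rows cannot be told apart from counts alone. The Psmb5 and Gm3375 rows are uncertain for that reason. Gm3375 and the summed fit were chosen after the values of Psmb5 had been seen.

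**Figure D2:**
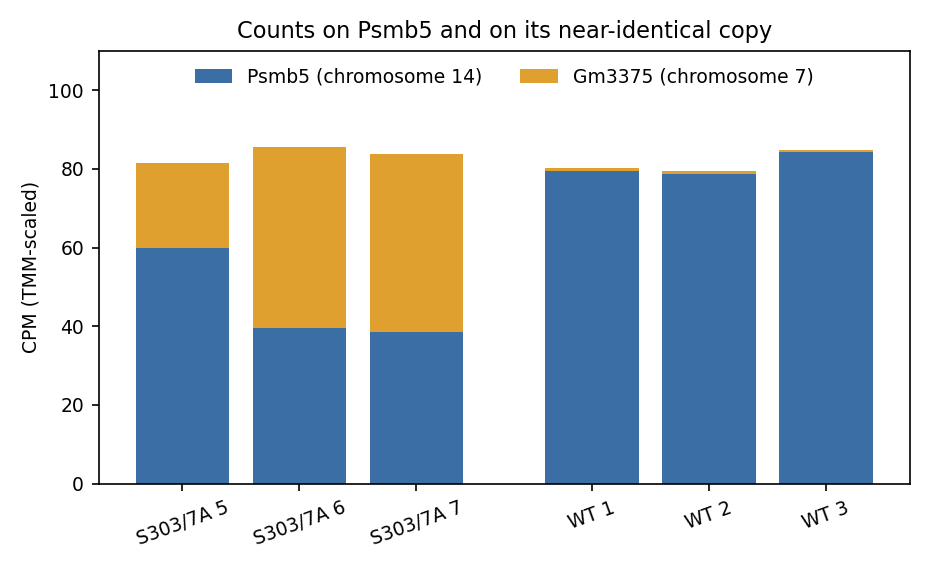
Stacked bars of the CPM on Psmb5 (blue) and on its near-identical copy Gm3375 (orange) in each library, S303/7A on the left and WT on the right. Psmb5 is lower in the 3 S303/7A libraries, Gm3375 fills the difference, and the total lies between 79.3 and 85.5 CPM in every library.

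The other constitutive catalytic subunits showed no such pattern. Psmb6, the caspase-like subunit (chromosome 11, 70525367 to 70527858), had 216, 228 and 217 CPM in S303/7A 5, 6 and 7 and 207, 207 and 222 CPM in WT 1, 2 and 3. The groups overlapped and the log2 fold was 0.06 ± 0.06. Psmb7, the trypsin-like subunit (chromosome 2, 38588036 to 38644087), had 39.4, 38.3 and 34.4 CPM in S303/7A and 36.8, 33.6 and 36.6 CPM in WT, again overlapping, with a log2 fold of 0.07 ± 0.10. Exons of Psmb7 overlap those of Nek6 on the opposite strand, and the sources used here do not say whether the counting used strand. Psmb5 shares exon bases with Mir686 on the same strand. Over the 3 constitutive catalytic genes the mean log2 CPM differed by -0.24 between S303/7A and WT with Psmb5 alone, and by 0.05 with the counts of near-identical copies summed.

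The immune catalytic subunits were abundant and 2 of the 3 sat slightly higher in S303/7A. Psmb8, the replacement for Psmb5 (chromosome 17, 34197721 to 34201454), had 577, 528 and 558 CPM in S303/7A 5, 6 and 7 and 522, 485 and 480 CPM in WT 1, 2 and 3. The lowest S303/7A value lay just above the highest WT value. The log2 fold was 0.16 ± 0.06 (SE) and edgeR's p was 0.0372 before and 0.483 after adjustment. Psmb8 shares exon bases with Gm20496 on the opposite strand. Psmb10, the replacement for Psmb7 (chromosome 8, 105935735 to 105938444), had 205, 219 and 215 CPM in S303/7A and 194, 182 and 191 CPM in WT. These groups did not overlap either, and the log2 fold was 0.17 ± 0.06 (SE) and edgeR's adjusted p was 0.449. Psmb9, the replacement for Psmb6, lies beside Psmb8 at 34181987 to 34187764 on chromosome 17 and shares 212 exon bases with Tap1 on the opposite strand. It had 193, 191 and 191 CPM in S303/7A and 215, 209 and 185 CPM in WT, with the S303/7A values inside the range of WT and a log2 fold of -0.08 ± 0.07. The 3 subunits that are built into the immunoproteasome together thus did not share a direction, and none passed the adjusted threshold.

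The PA28 activator subunits, which open the core and are induced with the immune subunits by interferon gamma, had log2 folds slightly below 0 and overlapped between the genotypes. Psme1 (chromosome 14, 55578123 to 55581529) had 282, 295 and 282 CPM in S303/7A 5, 6 and 7 and 323, 282 and 298 CPM in WT 1, 2 and 3. Its neighbour Psme2 (chromosome 14, 55587441 to 55591113) had 186, 191 and 172 CPM in S303/7A and 198, 178 and 196 CPM in WT. Their log2 folds were -0.07 ± 0.07 for Psme1 and -0.06 ± 0.07 for Psme2. Psme2b, whose transcript is 99.37% identical to Psme2 over 794 bases, had 11.1, 13.0 and 10.8 CPM in S303/7A and 12.1, 11.4 and 12.3 CPM in WT. It held 5.63% to 6.38% of the counts of the pair in every library, so no division of counts like that between Psmb5 and Gm3375 appeared here.

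**Figure D3:**
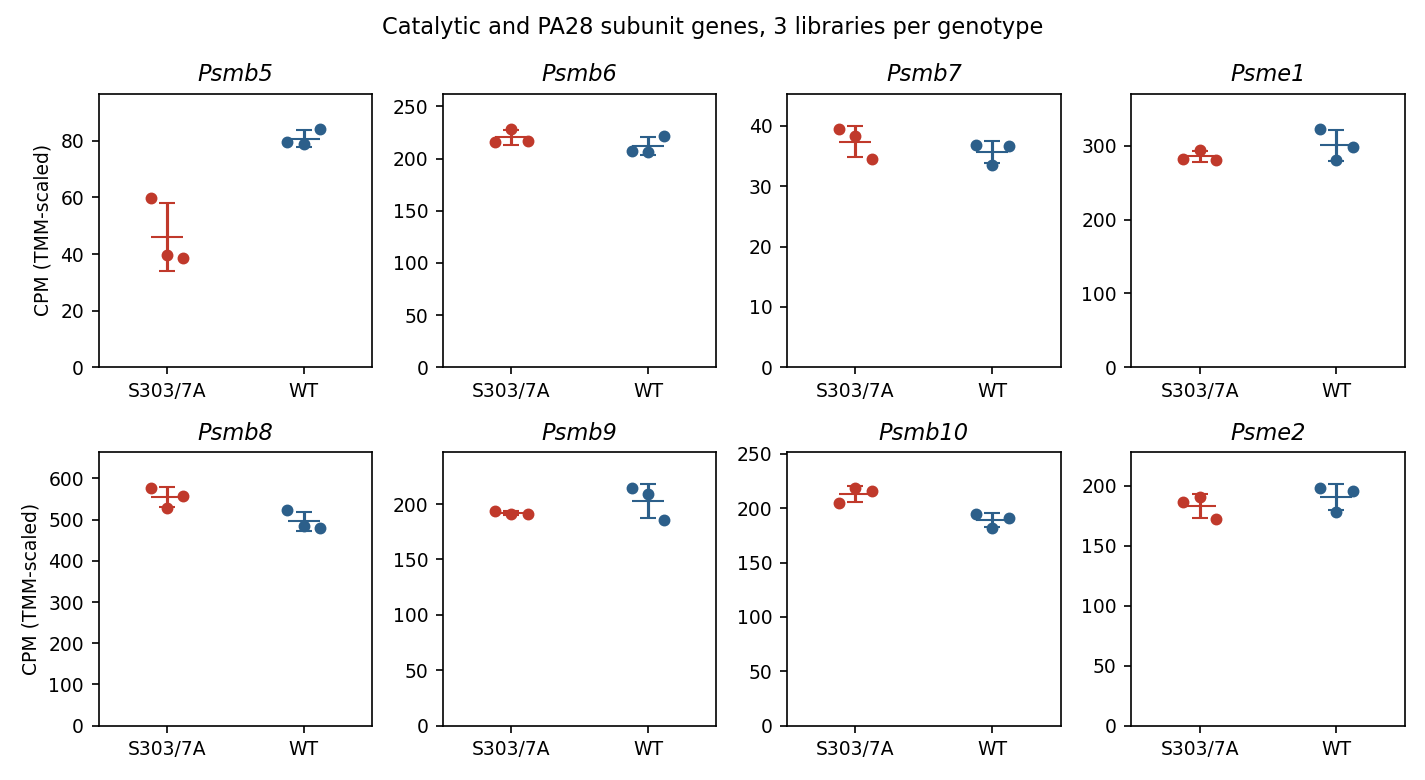
CPM of the 3 constitutive catalytic subunits, the 3 immune catalytic subunits and both PA28 subunits, 1 point per library with the mean and SD of 3 libraries, S303/7A left of WT in each panel and every axis starting at 0. Psmb5 separates widely, Psmb8 and Psmb10 separate narrowly, and the other 5 genes overlap.

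Each immune subunit was set against the constitutive subunit it replaces, as a ratio of values scaled by the length of the longest coding transcript, with no test. Psmb5, Psmb7, Psmb8 and Psmb9 share exon bases with other genes. The effect of this on the ratios and on the per-length levels below was not tested. The Psmb8 to Psmb5 ratio was 5.32, 7.38 and 7.99 in S303/7A 5, 6 and 7 and 3.62, 3.40 and 3.15 in WT 1, 2 and 3. The log2 ratio was higher by 1.00 ± 0.33 (SD of the difference) in S303/7A, without overlap. With Gm3375 added to Psmb5 the ratios were 3.91, 3.41 and 3.68 in S303/7A and 3.60, 3.37 and 3.13 in WT, the difference was 0.12 and the groups overlapped. The size of this difference thus depended on whether the Gm3375 counts were added to Psmb5. The Psmb9 to Psmb6 ratio was 0.530, 0.493 and 0.521 in S303/7A and 0.612, 0.596 and 0.492 in WT, and the Psmb10 to Psmb7 ratio was 4.59, 5.06 and 5.54 in S303/7A and 4.68, 4.79 and 4.61 in WT. Both overlapped, with log2 differences of -0.13 and 0.10. The Psmb9 to Psmb6 difference was -0.075 without WT 1 and -0.23 without WT 3, and the Psmb10 to Psmb7 difference was 0.17 without S303/7A 5 and 0.038 without S303/7A 7.

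Per-length levels are given as transcripts-per-million values (TPM), computed here with the same transcript lengths. Over the 6 libraries Psmb8 averaged 733 TPM, followed by Psmb6 at 616 TPM, Psme1 at 600 TPM, Psme2 at 442 TPM, Psmb10 at 348 TPM and Psmb9 at 332 TPM. Psmb5, counted without Gm3375, averaged 161 TPM, and Psmb7 averaged 71.6 TPM. The Psmb5 mean pools 116 ± 31.5 TPM in S303/7A and 206 ± 4.98 TPM in WT (SD, n = 3 each). The immune subunit was therefore above its constitutive counterpart for 2 of the 3 sites and below it for the third, in both genotypes. Neighbours in this order did not all differ beyond their spread: Psmb6 had 623 ± 13.9 TPM in S303/7A and 608 ± 17.8 TPM in WT, and Psme1 581 ± 10.5 TPM in S303/7A and 620 ± 44.4 TPM in WT (SD, n = 3 each). Likewise Psmb10 had 366 ± 9.23 TPM in S303/7A and 330 ± 11.1 TPM in WT, close to Psmb9 at 320 ± 5.64 TPM in S303/7A and 344 ± 30.3 TPM in WT. The order depends on the length taken: with the union of all annotated exons, Psmb8 averaged 495 TPM, Psme1 424, Psmb10 376, Psmb6 368, Psme2 338, Psmb5 226, Psmb9 172 and Psmb7 34.0 TPM.

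**Figure D4:**
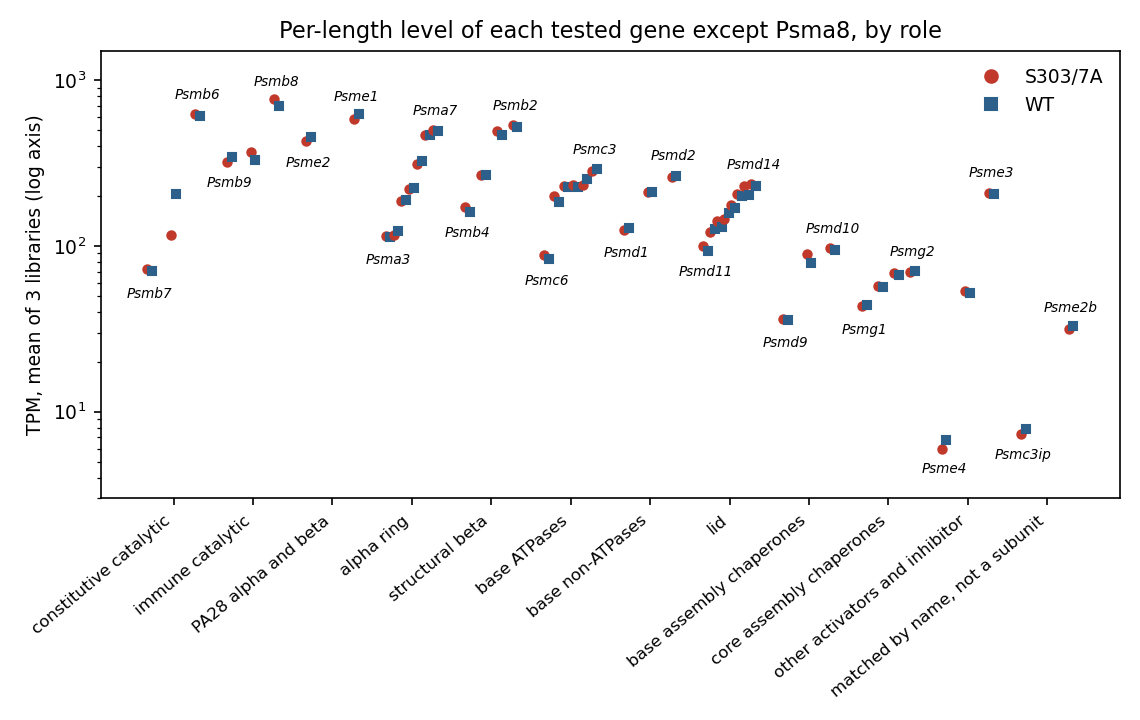
Mean TPM over 3 libraries of each tested gene except Psma8, on a log axis, by role, with circles for S303/7A and squares for WT and the lowest and highest gene of each role named. Most genes lie between the levels of Psmb7 (71.6 TPM) and Psmb8 (733 TPM), circles and squares nearly coincide, and Psmb5 between Psmb7 and Psmb6 shows the widest gap.

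The alpha ring, which closes the ends of the core, was level between the genotypes. Its 7 subunits had log2 folds from -0.05 to 0.05, 3 of them above 0, and all 7 overlapped. Psma3 had 148, 141 and 146 CPM in S303/7A 5, 6 and 7 and 138, 130 and 151 CPM in WT 1, 2 and 3. Psma4 had 99.3, 102 and 87.7 CPM in S303/7A and 99.4, 90.3 and 100 CPM in WT, with a log2 fold of -0.0046 ± 0.09. The ring's mean log2 CPM differed by 0.0009. With the length of the longest coding transcript, Psma7 had the highest level at 494 TPM and Psma3 the lowest at 114 TPM. This order too depends on the length taken. With the union of all annotated exons, Psma6 averaged 378 TPM, Psma7 261 TPM and Psma3 117 TPM. Psma8, which replaces an alpha subunit in the testis, had 31, 57 and 8 counts in S303/7A and 14, 7 and 37 counts in WT, too few and too uneven to place, with a log2 fold of 1.35 ± 0.82.

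The non-catalytic beta subunits Psmb1, Psmb2, Psmb3 and Psmb4, which build the inner rings, all had log2 folds above 0, from 0.03 to 0.12, and all overlapped. Psmb4 had 82.3, 100 and 88.1 CPM in S303/7A 5, 6 and 7 and 81.8, 78.5 and 88.1 CPM in WT 1, 2 and 3. Psmb1 had 230, 252 and 217 CPM in S303/7A and 230, 221 and 234 CPM in WT. In both genes the highest value was that of S303/7A 6 and the lowest, or nearly so, that of WT 2.

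In the base, 6 ATPases unfold the substrate and push it into the core. Their log2 folds ran from -0.09 to 0.14, and none had an unadjusted p under 0.05. Psmc2 had 142, 154 and 177 CPM in S303/7A 5, 6 and 7 and 148, 138 and 144 CPM in WT 1, 2 and 3. Psmc3 had 224, 228 and 233 CPM in S303/7A and 227, 231 and 233 CPM in WT, a log2 fold of -0.01 ± 0.06. Psmc4 was the one ATPase whose groups did not overlap, with 141, 155 and 147 CPM in S303/7A and 156, 161 and 156 CPM in WT, and its highest S303/7A value and lowest WT value were nearly equal. Among the non-ATPase members of the base, the scaffold Psmd2 had 353, 364 and 313 CPM in S303/7A and 358, 342 and 325 CPM in WT, the most CPM of any base subunit. The ubiquitin receptor Psmd4 had 162, 169 and 162 CPM in S303/7A and 158, 164 and 163 CPM in WT. The log2 folds of Psmd1, Psmd2 and Psmd4 lay between -0.02 and 0.03.

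The lid, which holds the deubiquitinase Psmd14, had 8 tested members with log2 folds from -0.10 to 0.21, of which 6 were above 0. Psmd6 had 131, 156 and 139 CPM in S303/7A 5, 6 and 7 and 127, 114 and 126 CPM in WT 1, 2 and 3. The groups did not overlap, and the log2 fold was 0.21 ± 0.09 (SE), with edgeR's p at 0.0483 before and 0.511 after adjustment. Psmd3 went the other way without overlap, with 138, 135 and 139 CPM in S303/7A and 150, 148 and 143 CPM in WT and a log2 fold of -0.10 ± 0.06. Psmd12 had 100, 115 and 97.8 CPM in S303/7A and 111, 100 and 112 CPM in WT, with full overlap.

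The assembly factors covered a similar range. Psmd5, Psmd9 and Psmd10 are chaperones that hold ATPases apart until the base is complete. Psmd5 had 171, 177 and 171 CPM in S303/7A 5, 6 and 7 and 142, 154 and 155 CPM in WT 1, 2 and 3, with no overlap. Its log2 fold of 0.20 ± 0.07 (SE) had the smallest p among the genes that were higher, 0.0184 before and 0.388 after adjustment by edgeR. Psmd9 had 35.1, 45.4 and 44.9 CPM in S303/7A and 37.2, 42.2 and 41.3 CPM in WT, and Psmd10 had a log2 fold of 0.06. The core chaperones Psmg1 to Psmg4, which pair the alpha subunits, had log2 folds from -0.0019 to 0.06 and all overlapped. Psmg3 had 28.5, 26.7 and 25.3 CPM in S303/7A and 25.0, 22.7 and 29.7 CPM in WT, and Psmg2 had 41.5, 43.3 and 34.9 CPM in S303/7A and 38.6, 40.2 and 41.1 CPM in WT.

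The other caps differed in level far more than between genotypes. Psme3, the nuclear PA28 gamma activator, had 247, 266 and 227 CPM in S303/7A 5, 6 and 7 and 241, 228 and 249 CPM in WT 1, 2 and 3. Psme4, the PA200 activator, had 16.5, 17.5 and 17.1 CPM in S303/7A and 17.4, 20.2 and 19.4 CPM in WT, where S303/7A 6 lay just above WT 1, so the groups overlapped. Its log2 fold was -0.16 ± 0.13. Per length, Psme3 averaged 207 TPM and Psme4 6.31 TPM. Psmf1, named as an inhibitor of the core, had a log2 fold of 0.07. Psmc3ip, which is no subunit, had 4.22, 4.27 and 4.18 CPM in S303/7A and 4.23, 4.39 and 4.69 CPM in WT. It shares 385 exon bases with Mlx on the opposite strand. Over all libraries Mlx had 37236 counts and Psmc3ip 1411, and the effect of the overlap was not tested.

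Counts of direction over these genes depended on single libraries. In all, 32 of 49 folds (65.3%) were above 0, beside 51.7% of all tested genes. The median log2 fold was 0.04, against 0.01 over all tested genes. S303/7A 6 was the highest of the 6 libraries for 27 of the 49 genes, and WT 2 the lowest for 18. Without S303/7A 6, 23 of the 49 folds were above 0 with a median of -0.01, and without WT 2, 23 were above 0 with a median of -0.0033. With library totals as the scaling, 28 were above 0. The 2 class means that did not overlap between the genotypes, apart from the constitutive catalytic one, were those of the immune catalytic subunits, higher in S303/7A by 0.09 on the log2 scale, and of the base ATPases, higher by 0.04. With library totals as the scaling these differences were 0.057 and 0.0080, and without S303/7A 7 that of the base ATPases was 0.021. Both separations were narrow. For the immune catalytic subunits the lowest S303/7A mean was 8.131 and the highest WT mean 8.126 log2 CPM. For the base ATPases these were 7.173 and 7.172 log2 CPM. How often means of other gene sets separate was not tested.

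**Figure D5:**
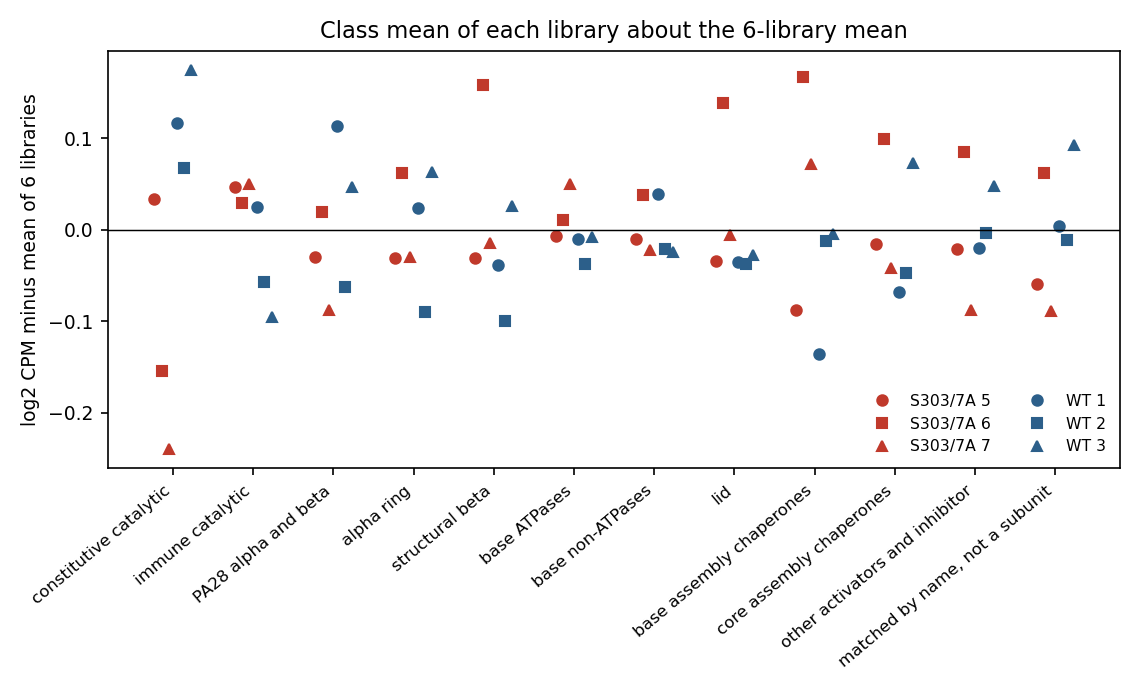
Mean log2 CPM of each role in each library, minus the mean of the 6 libraries, with red symbols for S303/7A and blue for WT. S303/7A 6 (red squares) lies highest in structural beta, lid and both chaperone roles, WT 2 (blue squares) lies at or near the bottom in several roles, and the constitutive catalytic role, with Psmb5 counted alone, spreads most among the subunit roles.

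Near-identical copies of the other subunits made no difference of this kind. Annotated transcripts at least 95% identical over at least 200 bases, on rows with counts, were found for 8 further genes, Psma2, Psma3, Psma4, Psma5, Psmb3, Psmd11, Psmd2 and Psme2. Their copies held 0.0769% to 9.29% of the summed counts in single libraries, and summing them moved the log2 fold by at most 0.0052. For Psmd11 the copy held 8.18% in S303/7A and 8.44% in WT on average, and for Psma3, with 4 copies, 3.81% in S303/7A and 3.89% in WT. None of the other 8 copies tested one by one was called by edgeR.

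Genes that work with the proteasome but carry other names were read from the same fit, from a list chosen beside the subunits. Of 48 tested, edgeR called 0, beside 0.364% of all genes. Before adjustment 5 (10.4%) reached p under 0.05, beside 9.68%, and 8 (16.7%) did not overlap, beside 16.0%, so both shares were near the background. The median log2 fold was 0.02. Pomp, the maturation factor of the core, had a log2 fold of 0.06 and 114 ± 10.5 CPM in S303/7A and 110 ± 6.31 CPM in WT (SD, n = 3 each). Nfe2l1, the factor that raises proteasome genes when the protease is inhibited, averaged 182 ± 1.48 CPM in S303/7A and 175 ± 12.1 CPM in WT, and Mafg, a small partner of its family, had 18.8, 17.6 and 26.5 CPM in S303/7A 5, 6 and 7 and 30.7, 30.5 and 28.7 CPM in WT 1, 2 and 3. Mafg did not overlap, with a log2 fold of -0.51 ± 0.17 (SE), and edgeR's adjusted p was 0.404.

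The interferon gamma pathway controls the immune subunits, and 9 of its genes were tested. Ifng itself had 34.4, 44.1 and 33.2 CPM in S303/7A 5, 6 and 7 and 44.5, 44.6 and 46.6 CPM in WT 1, 2 and 3. S303/7A 6 lay just below WT 1, so these groups did not overlap. The log2 fold of Ifng was -0.28 ± 0.13 (SE) and edgeR's adjusted p was 0.563. Ifngr2, a chain of the interferon gamma receptor, had 4.20, 3.22 and 5.25 CPM in S303/7A 5, 6 and 7 and 7.05, 11.9 and 7.40 CPM in WT 1, 2 and 3. The groups did not overlap, with a log2 fold of -1.06 ± 0.29 (SE), and edgeR's adjusted p was 0.282. The other chain, Ifngr1, was far more abundant, at 1743 ± 72.2 CPM in S303/7A and 1496 ± 177 CPM in WT (SD, n = 3 each), with a log2 fold of 0.22 ± 0.09 and overlap. Irf1 and Nlrc5, regulators induced by interferon gamma, had log2 folds of -0.03 and 0.09. The peptide transporter genes Tap1 and Tap2, which lie in the same stretch of chromosome 17 as Psmb8 and Psmb9, had log2 folds of -0.04 ± 0.09 and 0.12 ± 0.07 and did not pass. The largest fold in each remaining class was that of Akirin2 (0.37 ± 0.34), Tpp2 (0.15 ± 0.11) and Ubqln1 (0.68 ± 0.80), where Ubqln1 ranged from 22.6 to 154 CPM within S303/7A and from 18.0 to 70.8 CPM within WT.

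Promoter windows from RefSeq (GRCm38.p6), 250 bases before to 50 after the gene start, were found for 42 of the 50 genes and searched on both strands, as a description only. The heat shock element, spelled as GAA, TTC and GAA with 2 free bases between them, was in 0 of 42 windows, beside 0.662% of 27025 genes. The pattern TGANNNNGC was in 24 of the 42 (57.1%), beside 45.0% of all genes. It is a loose spelling of the antioxidant response element, to which Nfe2l1 and its family bind, with the base after TGA left free. A match need not be the stricter form of that element. The interferon-stimulated response element, GAAA repeated after 2 free bases, was in 5 (11.9%), those of Psmb3, Psmd4, Psmd9, Psme1 and Psmg4, beside 3.99% of all genes. The gamma-activated site TTCNNNGAA was in 3 (7.14%), those of Psmb8, Psmd2 and Psmg1, beside 9.55%. A match is a run of letters and no evidence of binding, and a window without one says nothing about the factor.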

How the data were processed

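RNA of sorted NK cells was sequenced after SMART-seq HT library preparation. The submitters' processing notes name STAR, featureCounts, Trimmomatic and DESeq2 and the build GRCm38 (mm10). The sources used here state no versions, annotation release, strand setting or treatment of reads with several matches. The authors deposited raw counts per gene and a table of normalized signal. Dividing the deposited counts by the deposited signal gave 1 factor per library, 0.817 to 1.40, equal to the size factors computed from the counts, and 100% of values came out as whole reads, so the raw counts were tested.

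The main test was edgeR 4.0.16 (R 4.3.3) on all 6 libraries: filterByExpr (minimum count 10, minimum total 15), TMM, the quasi-likelihood test and Benjamini-Hochberg adjustment over 16480 genes at 0.05. SEs are Wald-type. CPM is TMM-scaled, and TPM used lengths of the longest coding transcript in GENCODE M21, given for 53186 symbols. DESeq2 1.42.0, limma-voom (limma 3.58.1), other scalings and filters, thinning to equal totals and leaving out each library were alternatives. The test was checked on simulated counts. Near-identical copies were found with blastn 2.17.0 among GENCODE transcripts, and the coding sequences were aligned with Biopython 1.88. The p-values measure the spread between 3 mice per genotype.

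The members, roles and lists were chosen with earlier results of these data known. The genes named are the 3 constitutive catalytic, 3 immune and both PA28 subunits, the members with the largest and smallest absolute fold in each role, and those with an unadjusted p under 0.05; of other genes, the one with the largest fold in each class. Psmc4, Psmd3, Gm3375, Pomp, Nfe2l1, Ifng, Ifngr1, Irf1, Nlrc5, Tap1, Tap2, Klrk1, Ncr1 and Klrd1 were named after their values were seen, as were other genes given in passing.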

Additional observations from a re-analysis of the deposited data

How the results depend on the processing

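No paired analysis was possible because the genotypes share no replicate number. The count of all called genes, 60, was 431 with DESeq2, 38 with limma-voom and 171 without a filter on low counts, and 5 to 57 when 1 library was left out, with 31 without S303/7A 5, 30 without S303/7A 7, 27 without WT 1, 5 without WT 2 and 21 without WT 3. No gene of the proteasome set was called higher under any alternative, and 1, Psmb5, was called lower with DESeq2, without a filter and without S303/7A 5 (0 to 1 over left-out libraries). The log2 fold of Psmb5 was below 0 in 15 of 16 alternatives, with adjusted p from 0.000702 to 0.930, and 0.039 when summed with Gm3375, an alternative chosen after seeing the data. That sum also moved the Psmb8 to Psmb5 balance to 0.12 and the constitutive catalytic mean to 0.054. Folds near 0 changed sign: Psmc3ip to 0.046 when thinned, Psmd2 to -0.021 with library totals and -0.0014 without a filter, and Psmd4 to -0.0016 with library totals. With 1 library left out, log2 folds ranged from -0.0063 to 0.11 for Psma3, -0.063 to 0.055 for Psma4, -0.031 to 0.074 for Psmb1, -0.033 to 0.00043 for Psmc3, -0.038 to 0.067 for Psmd2, -0.010 to 0.17 for Psmd9, -0.13 to 0.0092 for Psme2b, -0.013 to 0.096 for Psme3, -0.066 to 0.083 for Psmg2 and -0.037 to 0.17 for Psmg3. Library totals moved the median fold of all genes by -0.03. The cause of these sign changes was not tested. Depth limits Psma8 and Psmc3ip most.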

Other observations

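Within 1 Mb of Psmb5, 57 genes were tested. No gene was called by edgeR (0), and 17 (29.8%) reached p under 0.05 before adjustment, beside 9.68% of all tested genes. Of the 17, 12 were lower in S303/7A. Within 1 Mb of Gm3375, 25 genes were tested, edgeR called 0, and 4 (16.0%) reached p under 0.05 before adjustment, beside the same 9.68%. All 4 were lower in S303/7A. Of all tested genes, 5.47% were lower in S303/7A at this p. Both windows were chosen after the values of Psmb5 and Gm3375 were seen.

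The 5 rows named as pseudogenes of proteasome subunits had few counts. Psma5-ps had 17, 25 and 19 counts in S303/7A 5, 6 and 7 and 21, 17 and 58 counts in WT 1, 2 and 3. Psmb5-ps, a row apart from Gm3375, had 3, 7 and 3 counts in S303/7A and 2, 4 and 5 counts in WT. The 3 other rows had at most 8 counts in an S303/7A library and at most 15 in a WT library.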
